A study of Mus musculus with 12 samples.

Results

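The genes described here are 34 genes that T cells and natural killer (NK) cells are known for, out of 32288 rows counted in each of 12 libraries of whole mouse tumors. They were taken by name and comprise 4 chains of the T cell receptor complex, 3 co-receptors, 6 adhesion and co-stimulatory receptors, 3 signalling proteins, 3 cytokine receptors, 4 transcription factors, 7 cytotoxic effectors and 4 NK receptors. Each tumor was grown from a clone of P815, a mastocytoma line of the DBA/2 mouse, implanted under the skin of the back of DBA/2 mice of 9 to 10 weeks of age. P815-IFNG is a single-cell clone that carries the blue-light-activated transcription factor GAVPO behind an EF-1α promoter, a GAVPO-driven cassette for Ifng, Cxcl10 and a Gaussia luciferase, and an EF-1α-driven mRuby and firefly luciferase reporter. P815-M is a single-cell clone with the mRuby and firefly luciferase reporter alone, so both lines carry that reporter and each line is represented by 1 clone. From day 7 after implantation the marked tumor area of freely moving mice was lit by a tracking blue laser for 12 h per day over 6 days. The other mice were left in the dark, with 3 mice in each of the 4 groups (P815-IFNG light, P815-IFNG dark, P815-M light and P815-M dark).

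T cells recognise antigen through a receptor whose CD3 and zeta chains pass the signal to the kinases Lck and Zap70 and to the adaptor Lat, while CD4 and CD8 bind the molecules that present the antigen. Cytotoxic T cells and NK cells kill by releasing perforin and granzymes, and interferon-gamma and the chemokine CXCL10 are known to act on and attract such cells. The comparisons of light with dark and of P815-IFNG with P815-M ask how far transcripts of these cells differed in tumors with and without induced cytokine expression. In a bulk tumor, fewer cells of a type and less RNA per cell cannot be told apart.

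The depth of the libraries, together with their kind, limited what could be seen. Libraries 3 of the P815-IFNG light and P815-IFNG dark groups held 41473500 and 42338096 counts (the deep pair), and the other 10 held 2211234 to 2946792. A count of 3, used as the floor, corresponded to 0.931 to 1.56 CPM (read counts normalised to library size with TMM factors) in the 10 libraries and to 0.0670 to 0.0694 CPM in the deep pair. The deep pair also differed in kind: mt-Nd6, the 1 mitochondrial protein-coding gene read from the other strand, held 3.56% and 3.85% of mitochondrial protein-coding counts there, against 29.0% to 47.9% in the 10 libraries. All P815-M libraries belong to the 10, so that comparisons of P815-IFNG with P815-M mix both kinds of library on 1 side. Summed CPM of 10 skeletal muscle markers was highest in P815-M dark 2 (780), P815-IFNG dark 1 (711) and P815-M light 3 (522), against 94.5 to 224 in the other 9 libraries.

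Of the 34 genes, 9 were above 3 counts in all 12 libraries (Cd247, Cd27, Lck, Lat, Il7r, Il2rb, Foxp3, Eomes and Prf1). Another 12 exceeded 3 counts in at least 5 of the 10 shallower libraries but not in all of them, and 13 did so in fewer than 5, among them Cd3d, Cd8b1, Gzma, Fasl and Ncr1. In the deep pair 27 genes were above 3 counts in both libraries and 7 in 1 library only (Cd8a, Cd8b1, Cd5, Cd6, Tcf7, Gzma and Gzmk). Per library, between 13 genes (P815-IFNG light 2 and P815-M dark 2) and 32 genes (the deep light library) passed the floor. Among the 10 shallower libraries P815-IFNG dark 1 passed with 31 genes, and it had the highest level of 12 of the 34 genes.

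**Figure D1:**
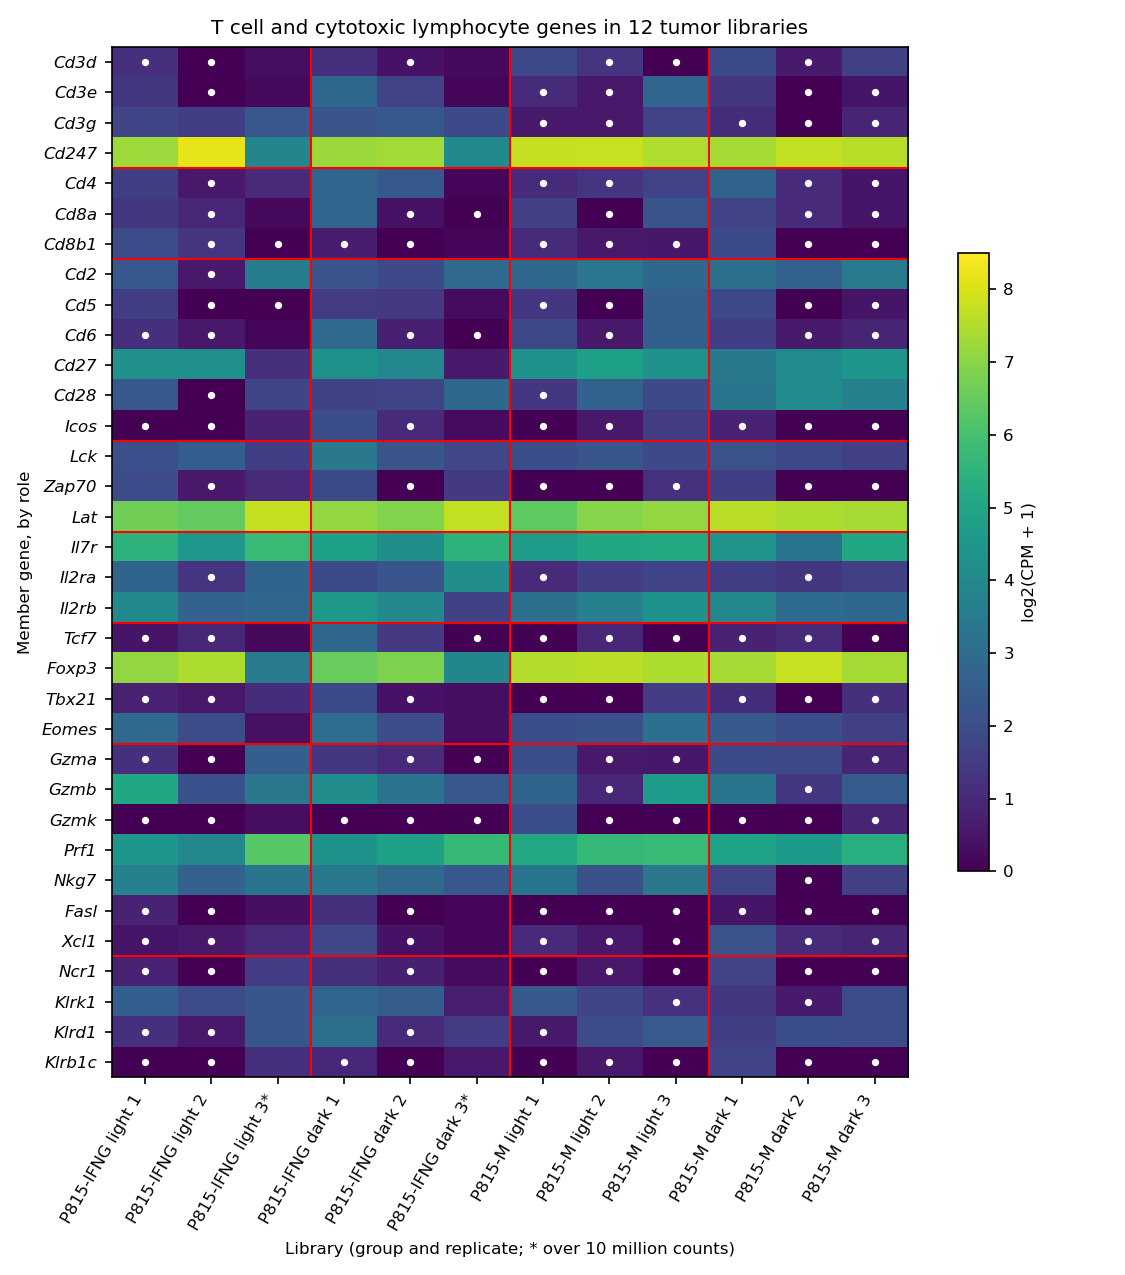
Level of each of the 34 genes (rows, grouped by role between red lines) in each of the 12 libraries (columns, by group), as log2(CPM + 1). White dots mark values of 3 counts or fewer, which are frequent among the CD3, co-receptor and NK receptor genes outside the deep pair, P815-IFNG dark 1 and P815-M dark 1, whereas Cd247, Lat, Foxp3 and Prf1 are above 3 counts in every column.

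The chains that define T cells were close to the floor. Cd3e, a signalling chain of the T cell receptor, held 4, 0 and 7 counts in libraries 1 to 3 of P815-IFNG light and 20, 7 and 5 in those of P815-IFNG dark, whereas P815-M had 2, 1 and 13 in light and 4, 0 and 1 in dark. Cd3d ranged from 0 to 7 counts over the 10 shallower libraries and held 11 and 7 in the deep light and deep dark library. The groups overlapped for both genes, and for Cd3e 2 libraries, P815-IFNG dark 1 and P815-M light 3, stood above the rest. These are also 2 of the 3 libraries with high muscle transcripts, while the third, P815-M dark 2, held no Cd3e count. The part of muscle tissue in these values was not tested.

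On the log2 scale Cd3e differed by −2.43 (SE 1.63) between P815-IFNG light and dark and by 1.82 (SE 1.63) between P815-M light and dark, with an adjusted p of 1 for both by edgeR's quasi-likelihood test. Leaving out 1 library moved the P815-IFNG value between −4.37 and −1.07 and the P815-M value between 0.13 and 3.40. Cd3g, the gamma chain, was better counted in the deep pair, with 171 counts in light and 119 in dark, but held only 0 to 12 counts elsewhere.

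The co-receptors were also counted in few reads, and their highest libraries differed from gene to gene. Cd4, the co-receptor of helper T cells, held 5, 1 and 47 counts in P815-IFNG light and 19, 12 and 5 in P815-IFNG dark, whereas P815-M had 2, 3 and 5 in light and 14, 2 and 1 in dark. Cd8a, a chain of the co-receptor of cytotoxic T cells, held 4, 2 and 7 counts in P815-IFNG light and 19, 1 and 0 in P815-IFNG dark, whereas P815-M had 4, 0 and 8 in light and 6, 2 and 1 in dark. Within each line light and dark overlapped for both genes. For P815-IFNG light against dark the fitted log2 difference was −1.41 (SE 1.23) for Cd4 and −1.30 (SE 1.81) for Cd8a, and for P815-M it was −0.56 (SE 1.27) and 0.56 (SE 1.80), with an adjusted p of 1 by edgeR for all 4. The direction of Cd8a in P815-IFNG rested on 1 library: without P815-IFNG dark 1 its log2 difference was 3.51. Cd8b1, the partner chain of Cd8a, stayed between 0 and 7 counts in all 12 libraries, with 7 in P815-IFNG light 1 and P815-M dark 1.

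**Figure D2:**
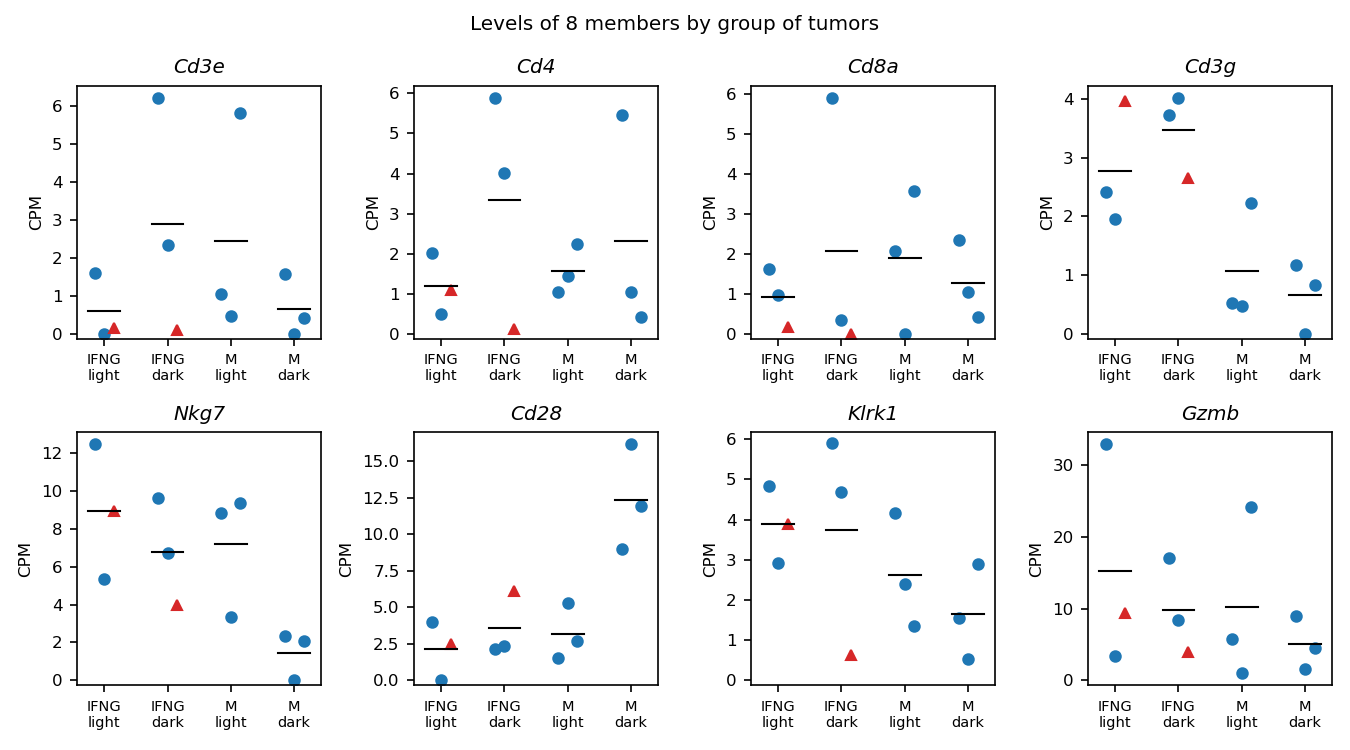
CPM of 8 of the genes in the 4 groups of tumors, with a point for each library and a line at the mean of 3. Red triangles are the deep pair and blue circles the other 10 libraries. Light and dark overlap within P815-IFNG in all 8 panels, and Nkg7 and Cd28 separate in P815-M.

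Across the list, light against dark gave no called gene in either line (a call needed an adjusted p of 0.05 or less and a change of 2-fold or more either way). By edgeR on all 12 libraries, 0 of 34 genes were called in P815-IFNG and 0 of 34 in P815-M, where the background over all 18804 genes tested was 0% in both, so edgeR called no gene at all. At an unadjusted p under 0.05 there were 0 of the 34 in P815-IFNG, beside 2.18% of all genes, and 2 in P815-M (Nkg7 and Cd28), beside 2.71%. DESeq2 also called 0 of the 34 in both lines, with 0 and 2 at an unadjusted p under 0.05, where over all 18804 genes it called 4 and 1 and put 414 and 561 under that p. In the 10 libraries, without the deep pair, edgeR called 0 of the 32 genes tested in both lines, with 3 at an unadjusted p under 0.05 in each. Over all 16944 genes it called 1 and 157 there and put 1810 and 2365 under that p. The median log2 fold change of the 34 genes was −0.19 in P815-IFNG, with 14 above 0, and 0.07 in P815-M, with 19 above 0, where the medians of all genes were −0.02 and 0.01. Leaving out P815-IFNG dark 1 turned the P815-IFNG median to 0.69, and leaving out the deep light library gave −0.55. For P815-M it was 0.57 without dark 1 and −0.24 without light 3. The interaction of line and light, which asks whether light acted differently in the 2 lines, was called for 0 of the 34 genes by edgeR and DESeq2, with 0 at an unadjusted p under 0.05 by both, where edgeR called 0% of all genes and 1.66% reached that unadjusted p. DESeq2 called 4 of 18804 genes there, with 282 at that p.

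By role, the median log2 difference in P815-IFNG was −1.30 for the co-receptors and −0.88 for the adhesion and co-stimulatory receptors, and 0.42 for the cytotoxic effectors and 0.15 for the NK receptors. Without the deep pair both positive medians turned, to −0.39 over the 5 effectors tested and −1.67 over the NK receptors. The other 4 roles had medians of −0.58 to −0.20. In P815-M the medians ran from −1.12 for the NK receptors to 0.75 for the adhesion and co-stimulatory receptors, and none of the 8 roles held a called gene in either line. Pathway genes outside the 34 gave the same count of calls. Of 30 further T cell receptor pathway genes tested, 0 were called by edgeR in either line, with 0 at an unadjusted p under 0.05 in P815-IFNG and 1, lower in light, in P815-M. Of 24 further NK and cytotoxic genes tested, 0 were called, with 2 higher in light at an unadjusted p under 0.05 in each line, where 142 (P815-IFNG) and 382 (P815-M) of all 18804 genes were higher at that p. Of the 6 checkpoint receptors of T cells 0 were called and 0 reached that p in either line. The checkpoint receptor with the highest mean level, Pdcd1 (PD-1), stood at 450 and 586 CPM in the deep light and dark library, at 134 to 296 CPM in the other P815-IFNG libraries and at 41.6 to 190 CPM in P815-M.

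In P815-IFNG 0 of the 34 genes separated light from dark without overlap over 3 libraries against 3, where 0.994% of all genes were higher and 2.75% lower in every light library. Each of these groups held 1 deep library, so a gene without overlap between the deep pair and the other 4 libraries could not separate light from dark. That applied to 8 of the 34 genes, higher in the 4, and to 4 genes, lower in the 4. The shares of all genes were 26.8% and 36.5%, so for such genes the count of 0 says nothing about light. In the 2 shallower libraries a group alone, Cd8b1 and Foxp3 lay above in both light libraries and Cd3e, Cd3g, Cd4, Icos, Lat and Tcf7 below. With 2 libraries against 2 such a pattern is common: 19.2% of all genes were higher and 22.9% lower. The median log2 difference of the 32 genes tested in the 10 libraries was −0.59, beside −0.04 over all genes. Other marker lists were lower in light in the same fit, with medians of −6.003 for skeletal muscle (6 of 10 genes at an unadjusted p under 0.05 and 0 called by edgeR), −3.44 for endothelial cells (7 of 8), −3.33 for adipocytes (5 of 6) and −0.77 for fibroblasts (5 of 8). Their part in the values of the 34 genes was not tested.

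In P815-M, Nkg7 was higher and Cd28 and Lat were lower in every light library than in every dark library, beside 10.1% of all genes higher and 8.06% lower. Nkg7, a protein of cytotoxic granules, held 17, 7 and 21 counts in light and 6, 0 and 5 in dark, a log2 difference of 2.23 (SE 0.82, adjusted p = 1 by edgeR). The lowest light library stood at 3.35 CPM and the highest dark library at 2.34 CPM. Cd28, the co-stimulatory receptor of T cells, held 3, 11 and 6 counts in light and 23, 31 and 29 in dark, a log2 difference of −1.95 (SE 0.87, adjusted p = 1 by edgeR). In a fit of the 6 P815-M libraries alone Cd28 was called, at −1.94, as the only one of the 27 listed genes tested there, where 1.55% of all genes were called. Lat held 161, 255 and 311 counts in light and 496, 331 and 400 in dark, a log2 difference of −0.62 (SE 0.40, adjusted p = 1 by edgeR). In the fit of all 12 libraries each gene has 1 estimate of spread, shared by the 4 groups and both kinds of library. In the 10 libraries alone the log2 differences were 2.16 for Nkg7, −1.95 for Cd28 and −0.64 for Lat. Their adjusted p by edgeR was 0.141, 0.154 and 0.121 there, where 157 of 16944 genes were called. An exact permutation test of 3 against 3 cannot fall below p = 0.1. Markers of other cells moved in the same comparison: the 15 macrophage and monocyte genes summed to 1852 to 2106 CPM in P815-M light and 835 to 1197 CPM in P815-M dark. All 15 had a fitted difference above 0, and their part in the Nkg7 and Cd28 values was not tested.

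The deep pair, which measured these genes best, gives 1 tumor in light against 1 in the dark and allows no test. Its ratios are printed with 95% exact intervals that cover counting error only. Over the pair 29 of the 34 genes had at least 10 counts. Of these 15 were at least 2-fold higher in the light library, 2 were at least 2-fold lower and 12 lay within 2-fold, whereas 9.61% of the 17289 genes with such counts were at least 2-fold higher and 5.28% lower. The 15 included all 4 NK receptors and 6 of the 7 cytotoxic effectors. Markers of other cells also differed between these 2 tumors: all 6 adipocyte genes were at least 2-fold higher in light, with a sum of 97.9 against 17.6 CPM, and 9 of 10 skeletal muscle and 3 of 8 endothelial genes at least 2-fold lower. Their part in the lymphocyte values was not tested.

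The 7 genes whose whole interval lay above 2-fold were Cd4, Il2rb, Tbx21, Gzma, Xcl1, Ncr1 and Klrk1. The 250 bases upstream of the RefSeq start (GRCm38.p6) were searched for the T-box core TCACACC on both strands, since Tbx21 and Eomes encode T-box factors that are known to act on genes of cytotoxic cells. Of the 7 genes 5 have an entry in the promoter table, and 1 of these, Xcl1, holds the motif. Among all 34 genes 26 have an entry and 3 hold it (Gzmk, Nkg7 and Xcl1), against 3.33% of 32851 promoters. The upstream stretches of Gzma, Xcl1, Ncr1 and Klrk1 are printed 5′ to 3′ on the gene's strand, with the motif in capitals, because these 4 effectors and receptors had the highest ratios apart from Cd4. They were chosen after the values were seen, each ends before the first base of the gene's model, and a match of letters is a description and not a binding site.
Gzma (chr13:113100982-113101231, minus strand): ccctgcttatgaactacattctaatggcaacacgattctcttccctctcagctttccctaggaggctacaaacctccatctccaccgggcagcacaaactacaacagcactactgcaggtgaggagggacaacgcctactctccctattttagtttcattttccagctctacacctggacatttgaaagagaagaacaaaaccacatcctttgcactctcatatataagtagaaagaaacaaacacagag
Xcl1 (chr1:164935528-164935772, minus strand): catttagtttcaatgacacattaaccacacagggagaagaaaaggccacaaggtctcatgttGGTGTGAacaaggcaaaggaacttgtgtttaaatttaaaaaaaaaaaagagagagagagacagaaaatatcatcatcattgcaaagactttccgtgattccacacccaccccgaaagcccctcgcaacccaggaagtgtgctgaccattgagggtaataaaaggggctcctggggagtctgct
Ncr1 (chr7:4337465-4337714, plus strand): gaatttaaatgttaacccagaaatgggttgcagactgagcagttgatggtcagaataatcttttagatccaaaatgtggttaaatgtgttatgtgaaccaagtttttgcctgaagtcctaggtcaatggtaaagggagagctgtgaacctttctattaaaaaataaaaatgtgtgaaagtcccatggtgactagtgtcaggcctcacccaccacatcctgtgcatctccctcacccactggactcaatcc
Klrk1 (chr6:129623865-129624114, minus strand): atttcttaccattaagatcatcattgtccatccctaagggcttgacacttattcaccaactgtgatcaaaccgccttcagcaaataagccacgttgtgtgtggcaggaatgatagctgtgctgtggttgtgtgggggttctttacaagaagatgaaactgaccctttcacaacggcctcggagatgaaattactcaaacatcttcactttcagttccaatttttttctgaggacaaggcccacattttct

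Among the cytotoxic effectors Gzma, encoding the protease granzyme A, held 206 counts in the deep light library and 1 in the deep dark library, a ratio of 214 (95% interval 37.9 to 8477). Outside the pair Gzma held 3 and 0 counts in P815-IFNG light and 5 and 3 in P815-IFNG dark, so the shallower libraries did not show this difference. Gzmb, encoding granzyme B, held 403 and 176 counts in the pair, a ratio of 2.37 (1.98 to 2.85). In the other 4 P815-IFNG libraries Gzmb stood at 33.0 and 3.42 CPM in light and at 17.1 and 8.38 CPM in the dark, and the 2 groups overlapped. Prf1, encoding perforin, held 3362 and 2254 counts, a ratio of 1.55 (1.47 to 1.63), the only effector under 2-fold. Nkg7 held 386 and 178 counts (ratio 2.25), and the chemokine gene Xcl1 held 47 and 5 (ratio 9.75, 3.89 to 31.4). Fasl, the death ligand, and Gzmk, encoding granzyme K, had only 12 and 5 counts and 10 and 2 counts.

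All 4 NK receptors were higher in the deep light library than in the deep dark library. Ncr1, encoding the activating receptor NKp46, held 81 counts in light and 9 in dark, a ratio of 9.33 (4.68 to 21.1). Klrk1, encoding the activating receptor NKG2D, held 168 and 28 counts, a ratio of 6.22 (4.15 to 9.64). Klrd1, encoding CD94, and Klrb1c, encoding NK1.1, had ratios of 2.11 (1.61 to 2.79) and 2.45 (1.46 to 4.24). The other libraries did not share the order: Klrk1 stood at 4.83 and 2.93 CPM in the shallower P815-IFNG light libraries and at 5.90 and 4.69 CPM in dark. Over all 3 libraries a group its fitted log2 difference was 0.11 (SE 0.82, adjusted p = 1 by edgeR), and in the 10 libraries alone it was −0.44. In P815-M it was 0.63 (SE 0.91, adjusted p = 1 by edgeR). Ncr1 held 0 to 6 counts and Klrb1c 0 to 6 counts in each of the 10 libraries.

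**Figure D3:**
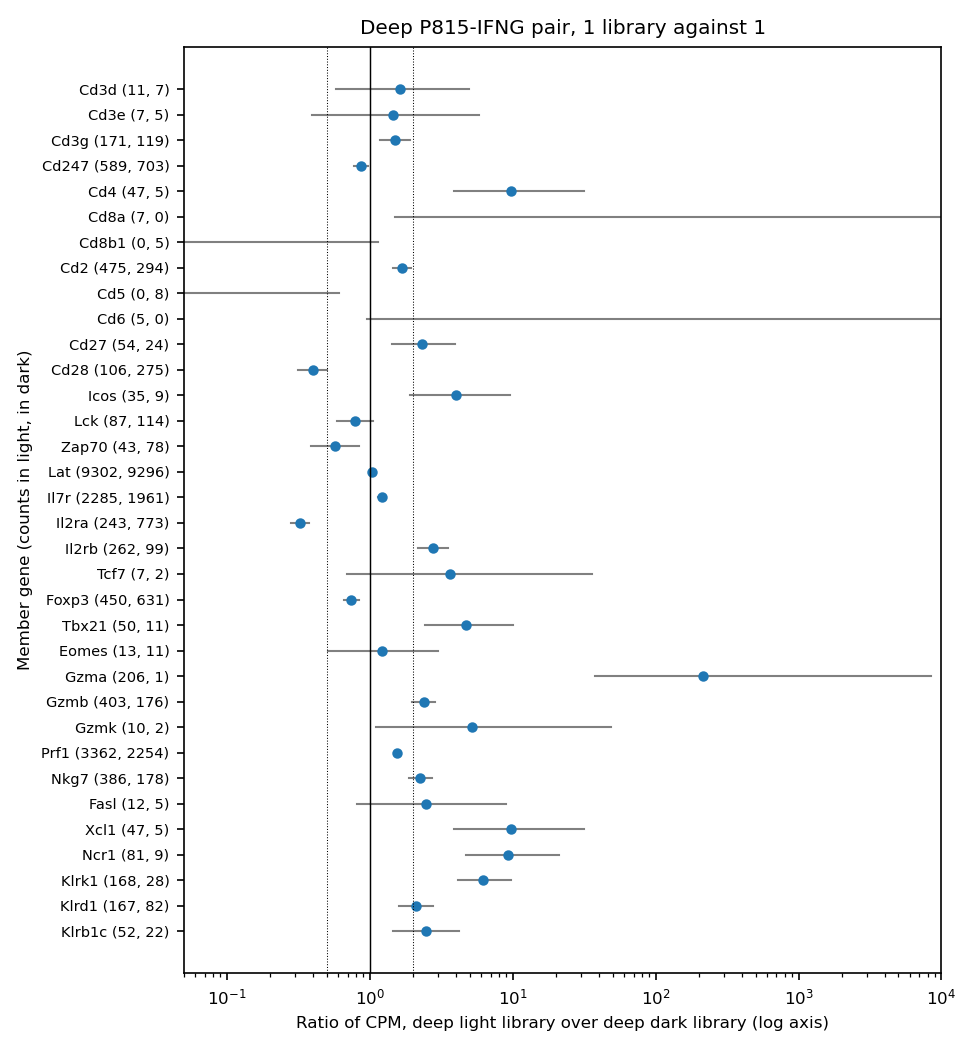
Ratio of CPM between the deep P815-IFNG light library and the deep P815-IFNG dark library for the 34 genes, on a log axis, with counts in light and dark beside each name. Points are ratios, bars are 95% exact intervals for counting error (cut at the edges of the plot, with no point where a count is 0), and dotted lines mark 2-fold. The 4 NK receptors and 6 of the 7 cytotoxic effectors lie right of the upper dotted line, and Cd28 and Il2ra left of the lower one.

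The ratios of the 4 listed chains of the T cell receptor complex were closer to 1 in the pair than those of the NK receptors. Cd3d held 11 and 7 counts (ratio 1.63, 0.58 to 4.96) and Cd3e 7 and 5 (ratio 1.45, 0.40 to 5.80). Cd3g held 171 and 119 (ratio 1.49, 1.17 to 1.90) and Cd247, the zeta chain, 589 and 703 (ratio 0.87, 0.78 to 0.97). All 4 ratios lay within 2-fold, but the intervals of Cd3d and Cd3e contain the ratios of Klrd1 and Klrb1c, so these chains cannot be ranked below those receptors. Cd4 held 47 and 5 counts, a ratio of 9.75 (3.89 to 31.4). Cd8a held 7 and 0 counts, at least 2.42-fold higher in light when the dark library is set to the floor of 3 counts, and Cd8b1 held 0 and 5, so the 2 chains of CD8 pointed in opposite directions at the limit of detection. The 3 receptor segments outside the list, chosen after their values were seen, held 58 and 41 counts (Trac), 97 and 12 (Trbc1) and 48 and 5 (Trbc2) in light and dark. Counting intervals were not computed for these segments, so they cannot be ranked against the CD3 chains. In CPM Trbc1 stood at 2.25 and 0.268 and Trbc2 at 1.11 and 0.112.

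Among the receptors of cytokines and co-stimulation, the pair held genes in both directions. Il2rb, the beta chain of the interleukin-2 receptor that NK cells and T cells share, held 262 and 99 counts (ratio 2.74, 2.17 to 3.49). Il2ra, the alpha chain of that receptor, held 243 and 773 counts (ratio 0.33, 0.28 to 0.38). Cd28 held 106 and 275 (ratio 0.40, 0.32 to 0.50), while the co-stimulatory receptors Icos, with 35 and 9 (ratio 4.03, 1.90 to 9.54), and Cd27, with 54 and 24 (ratio 2.33, 1.42 to 3.95), were higher in light. Cd2, an adhesion receptor, held 475 and 294 counts. Of the kinases, Lck held 87 and 114 and Zap70 43 and 78 counts. Tbx21, encoding the transcription factor T-bet, held 50 and 11 counts (ratio 4.71, 2.42 to 10.04), and Eomes, its relative, held 13 and 11. Cd5, Cd6 and Tcf7 had at most 8 counts in either library.

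Levels per length placed the genes far apart. In the deep pair Lat had the highest mean level, 76.4 CPM per kb of exon, followed by Prf1 at 24.8, Il7r at 10.4, Nkg7 at 7.06, Cd2 at 5.04 and Gzmb at 4.62, while Cd3e stood at 0.0335 CPM per kb. Lat, the adaptor downstream of the T cell receptor, is also known to serve the IgE receptor of mast cells, the lineage of P815. The mast cell receptor gene Kit stood at 666 and 616 CPM in the pair and at 317 to 585 CPM in the other libraries, so mast cell transcripts were abundant in every tumor. Lat held 9302 and 9296 counts in the pair, a ratio of 1.04 (1.01 to 1.07), and over all P815-IFNG libraries its log2 difference between light and dark was −0.20 (SE 0.40, adjusted p = 1 by edgeR). Il7r, the receptor of interleukin-7, held 2285 and 1961 counts in the pair, with a fitted log2 difference of 0.41 (SE 0.48) in P815-IFNG and 0.58 (SE 0.50) in P815-M, and an adjusted p of 1 for both by edgeR. For Prf1 these were 0.23 (SE 0.57) and 0.53 (SE 0.58), again with an adjusted p of 1 by edgeR, and in the 10 libraries the P815-IFNG value was −0.39.

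Several genes above 3 counts in every library differed between the kinds of library without overlap. Cd247 stood at 150 and 293 CPM in P815-IFNG light 1 and 2 and at 148 and 161 CPM in P815-IFNG dark 1 and 2, against 13.6 and 15.7 CPM in the deep pair. Foxp3, the transcription factor of regulatory T cells, stood at 138, 175, 91.2 and 112 CPM in these 4 libraries and at 10.4 and 14.1 CPM in the deep pair. Cd27 stood at 14.4 to 19.2 CPM in the 4 libraries and at 1.25 and 0.536 CPM in the pair. For none of these did the 4 libraries and the pair overlap. In all, 8 of the 34 genes (Cd247, Cd8a, Cd6, Cd27, Lck, Tcf7, Foxp3 and Eomes) were higher in each of the 4 than in both deep libraries, and 4 (Cd2, Lat, Gzmk and Prf1) were lower, beside 26.8% and 36.5% of all genes. Of these, Cd8a, Cd6 and Tcf7 held 3 counts or fewer in some of the 4 libraries. Gzmk held 0 in all 4, whose floors exceed its 0.231 and 0.0446 CPM in the pair, so its difference was not detectable.

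In the mouse annotation (GRCm38, GENCODE M21) exons of Cd247 (chr1:165788681-165877277, plus strand) overlap exons of Pou2f1 on the opposite strand over 3007 bases, 56.4% of the Cd247 exon length. Exons of Foxp3 (chrX:7573644-7595245, plus strand) overlap those of opposite genes by up to 590 bases, 12.9% of its exon length, with Ccdc22 among these genes. For Cd27 (chr6:125232622-125237010, minus strand) no exon of an opposite gene overlaps its exons. Pou2f1 stood at 36.5 and 36.7 CPM in the deep pair and at 8.33 to 23.0 CPM in the 10 libraries, so Cd247 and Pou2f1 differed in opposite directions between the kinds of library. Ccdc22 stood at 23.4 and 32.2 CPM in the pair and at 8.78 to 21.4 CPM in the 10. The labels name 1 kit, which marks the strand, for every library. Beyond that label, the sources used here do not say whether the kit as used differed between the 10 libraries and the deep pair. They also do not say whether the strand setting of the counting differed. Whether reads of opposite genes enter the counts of Cd247 and Foxp3 was not tested. Exons of Xcl1, Cd3e and Eomes also overlap those of opposite genes, over 18.7%, 3.31% and 2.84% of their exon length. Because the strand setting is not known, the levels of all genes in the 10 libraries are uncertain, not only those of Cd247 and Foxp3. In light against dark the fitted log2 difference was 0.49 (SE 0.90) for Cd247, 0.58 (SE 0.84) for Foxp3 and 0.14 (SE 1.06) for Cd27 in P815-IFNG. In P815-M it was 0.11 (SE 0.89), 0.03 (SE 0.83) and 0.50 (SE 1.05), and all 6 had an adjusted p of 1 by edgeR.

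**Figure D4:**
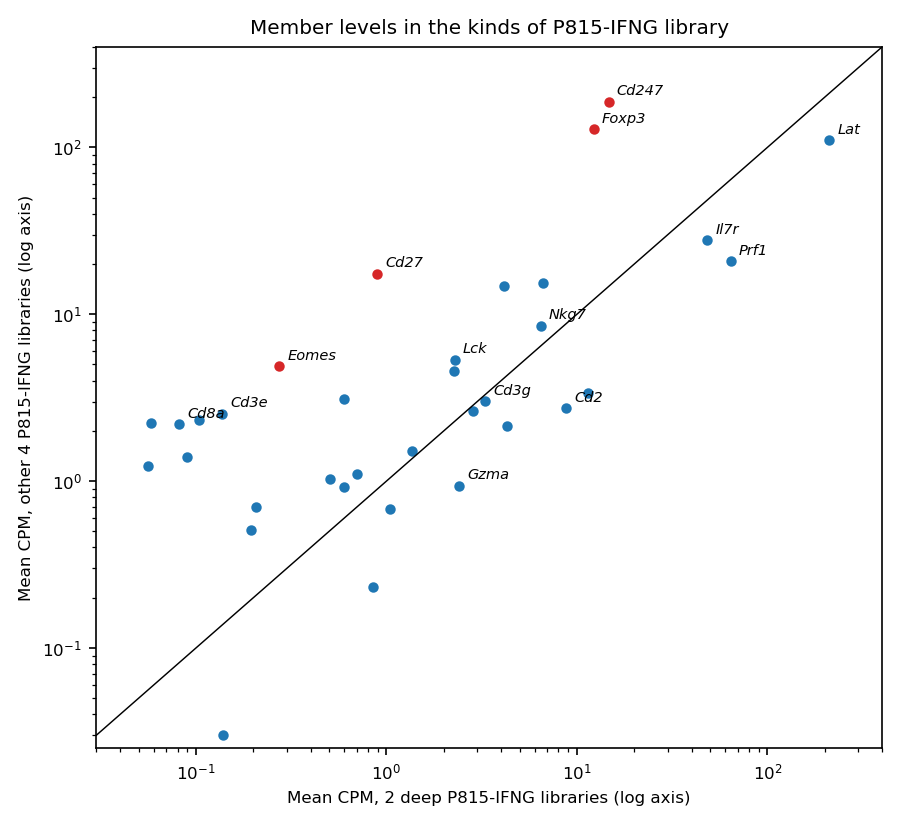
Mean CPM of each of the 34 genes in the other 4 P815-IFNG libraries (vertical, log axis) against the mean of the 2 deep P815-IFNG libraries (horizontal, log axis), with a line of equality. Cd247, Foxp3, Cd27 and Eomes, in red, lie above the line with no overlap of the libraries, and Lat, Prf1 and Cd2 below it. The point at the lower edge is Gzmk, which held 0 counts in the 4 libraries.

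P815-IFNG against P815-M gave 0 called genes of the 34 by edgeR in light, beside 0.016% of all genes, and 0 in the dark, beside 0.0106%. At an unadjusted p under 0.05 there were 0 in light (6.79% of all genes) and 3 in the dark, all higher in P815-IFNG (6.86% of all genes). DESeq2 called 0 in both as well, with 0 and 4 at an unadjusted p under 0.05, while over all 18804 genes it called 41 and 38, with 1421 and 1291 at that p. The median log2 difference of the 34 genes was −0.10 in light and 0.37 in the dark, where all genes had medians of 0.15 and 0.33. With the size factors of DESeq2 the medians of all genes were 0.04 and 0.16. Without P815-IFNG dark 1 the median of the 34 genes in the dark was −0.79, without P815-M dark 1 it was 1.10, and without P815-IFNG light 2 the median in light was 0.06.

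In light, Cd27 and Foxp3 were lower in every P815-IFNG library than in every P815-M library, where 7.71% of all genes were lower and 9.23% higher. Cd27 stood at 18.5, 18.1 and 1.25 CPM in P815-IFNG and at 19.7, 27.8 and 19.7 CPM in P815-M, a log2 difference of −0.88 (SE 1.06, adjusted p = 0.746 by edgeR). Foxp3 stood at 138, 175 and 10.4 CPM against 183, 197 and 175 CPM, a log2 difference of −0.79 (SE 0.84, adjusted p = 0.720 by edgeR). For both genes the lowest value by far was the deep library, and in the case of Foxp3 the gap between P815-IFNG light 2 and P815-M light 3 was under 1 CPM and closed with the size factors of DESeq2, under which only Cd27 separated. Without the deep light library the differences were −0.27 and −0.22.

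In the dark, Cd3g, Il2ra and Nkg7 were higher and Cd247, Cd28 and Foxp3 lower in every P815-IFNG library, where 10.9% of all genes were higher and 10.3% lower. Cd3g held 12, 12 and 119 counts in P815-IFNG, of which 119 is the deep library, and 3, 0 and 2 in P815-M. In CPM this was 3.72, 4.02 and 2.66 against 1.17, 0 and 0.823, a log2 difference of 2.28 (SE 0.90, adjusted p = 0.604 by edgeR), and all 3 P815-M values were at or under the floor. Il2ra stood at 2.79, 3.69 and 17.3 CPM against 1.95, 1.56 and 2.06, a log2 difference of 2.12 (SE 0.80, adjusted p = 0.604 by edgeR) that was 0.79 without the deep dark library. Nkg7 stood at 9.62, 6.70 and 3.97 CPM against 2.34, 0 and 2.06, a log2 difference of 2.13 (SE 0.81, adjusted p = 0.604 by edgeR). P815-M dark was thus the group with the lowest Nkg7. Other markers differed in the same comparison: the macrophage and monocyte genes summed to 2129 and 2045 CPM in P815-IFNG dark 1 and 2 and to 791 CPM in the deep dark library, against 835 to 1197 CPM in P815-M dark. In the 10 libraries 10 of the 15 macrophage genes (4 called by edgeR), all 6 adipocyte genes (5 called) and 6 of 8 fibroblast genes (2 called) were higher at an unadjusted p under 0.05. Their part in the values of the 34 genes was not tested.

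Cd28 stood at 2.17, 2.35 and 6.14 CPM in P815-IFNG dark and at 8.98, 16.1 and 11.9 CPM in P815-M dark, a log2 difference of −1.74 (SE 0.83, adjusted p = 0.604 by edgeR). P815-M dark held the 3 highest Cd28 levels of the 12 libraries. Cd247 differed by −0.81 (SE 0.90, adjusted p = 0.670 by edgeR) and Foxp3 by −1.33 (SE 0.85, adjusted p = 0.604 by edgeR), and without the deep dark library by −0.29 and −0.84. In the fit of the 10 libraries Foxp3 differed by −0.84 (SE 0.20, adjusted p = 0.0326 by edgeR), less than the 2-fold a call needed. There 0 of the 32 genes tested were called and 11 reached an unadjusted p under 0.05, 7 of them higher. Over all 16944 genes 371 were called and 3303 reached that p. In the 10 shallower libraries alone 9 of the genes were higher and 5 lower in both P815-IFNG dark libraries than in the 3 of P815-M, beside 19.6% and 16.6% of the genes tested there. The 9 were Cd3e, Cd3g, Icos, Lck, Il2ra, Il2rb, Tcf7, Nkg7 and Klrk1, and the 5 were Cd247, Cd2, Cd28, Lat and Foxp3.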

How the data were processed

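Whole tumors of 12 mice were sequenced from stranded mRNA libraries (Illumina sequencing). The authors filtered reads with fastp, aligned them with STAR 2.7.9a to mm10 with the knock-in sequences added and counted them with HTSeq 0.13.5 with default parameters; the annotation release was not given in the sources used here. The deposited values are raw counts per gene symbol, before the authors removed mitochondrial genes and applied ComBat-seq, whose batches are not named.

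Here 13 mitochondrial rows were removed and the 18804 genes that summed to 10 counts or more were tested with edgeR 4.0.16 in R 4.3.3 (TMM, 1 mean per group over all 12 libraries, quasi-likelihood test, Benjamini-Hochberg adjustment over all genes). CPM are on TMM-scaled library sizes. A call needed an adjusted p of 0.05 or less and a log2 fold change of 1 or more either way. Counting error alone is covered by intervals and floors. The 34 genes and the marker lists were chosen with earlier results of these data known. Fold changes are printed for Cd3e, Cd4 and Cd8a, for the gene of each role with the highest mean CPM, and for genes that are called or whose groups do not overlap. Alternatives were DESeq2 1.42.0, its size factors, other filters, mitochondrial genes kept, fewer libraries, a replicate block, depth class as a term, and ComBat-seq (sva 3.50.0) with depth class as batch. The study's IHW weighting was not repeated. Deviations from group means of same-numbered P815-IFNG light and dark libraries correlated at 0.71, 0.71 and 0.92, the third being the deep pair; shallower libraries with different numbers correlated at 0.70 and 0.67, so these values follow the kind of library and show no pairing by number. In P815-M they were −0.04, −0.01 and −0.23. The edgeR fit of all 12 libraries was tested on simulated counts for P815-IFNG light against dark, with the same spread set for every library. The other comparisons and fits were not tested in this way.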

Additional observations from a re-analysis of the deposited data

How the results depend on the processing

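The count of 0 called genes in P815-IFNG light against dark held under every alternative run. Over all genes DESeq2 called 4 in this comparison, edgeR on the 10 libraries 1, depth class as a term 2 and ComBat-seq 157. Every other alternative called 0 of all genes, so there the count for the 34 genes could not have differed from 0. In P815-M it was 1 with only the libraries compared (Cd28, beside 244 of 15722 genes) and 2 with ComBat-seq on the depth class (Cd28 and Nkg7). ComBat-seq gave 2 called genes for the lines compared in light (Gzmk and Prf1) and 4 in the dark (Cd2, Cd28, Gzmk and Nkg7), and the cause was not tested. Over all 18674 genes ComBat-seq gave 157 calls in P815-IFNG light against dark, 257 in P815-M, and 262 and 570 between the lines in light and dark. With the replicate number as a replicate block, 0 of the 34 genes were called in any comparison, and the median log2 difference was 0.01 in P815-IFNG and 0.20 in P815-M. Over all genes the block gave 4 calls between the lines in light and 7 in the dark, against 3 and 2 without it. It gave 0 calls over all genes in the other comparisons, and turned Cd4 in P815-M to 0.12.

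Genes without overlap between groups in the 10 shallower libraries, where fewer libraries are compared, were 2 higher and 6 lower for P815-IFNG light against dark (19.2% and 22.9% of all genes), 1 higher and 4 lower for the lines compared in light (14.0% and 13.0%), and 9 higher and 5 lower in the dark (19.6% and 16.6%). With DESeq2's size factors 1 was lower in light. ComBat-seq turned Cd4 to 1.16, Cd8a to 1.62 and Prf1 to −0.0027 in P815-IFNG, and Foxp3 to −0.041 in P815-M. In the 10 libraries Prf1 was −0.39 and Klrk1 −0.44 in P815-IFNG. The causes were not tested.

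Leaving out each library in turn gave medians of −0.55 to 0.69 (P815-IFNG light against dark), −0.24 to 0.57 (P815-M), −0.26 to 0.06 and −0.79 to 1.10 (the line comparison in light and in dark), and −0.92 to 0.37 for the difference between lines. Single genes changed direction in P815-IFNG for Cd8a (−2.29 to 3.51), Cd247 (−0.40 to 1.03), Cd27 (−0.50 to 0.78), Lat (−0.67 to 0.026), Prf1 (−0.80 to 0.62) and Klrk1 (−0.50 to 0.61), and in P815-M for Cd4 (−1.06 to 1.14), Cd8a (−0.32 to 1.40) and Foxp3 (−0.046 to 0.18). Of 656 values of single genes recomputed, 27 reversed, 20 of them with 1 library left out. In the 10 shallower libraries a gene at 0 may still stand at up to 1.56 CPM by the count floor alone. Because the strand setting is not known, its level there may also lie above this bound.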
